A study of Mus musculus with 229 samples.

Results

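The genes described here are 7 that mark committed oligodendrocyte precursors: Gpr17, Bmp4, Enpp6, Neu4, Sirt2, Bcas1 and Tcf7l2. They were chosen by name as markers of this state, with earlier results of these data known. All 7 are among the 15350 gene symbols listed in all 6 expression tables of the series. Their levels were read in every droplet library and every C1 set, together with their co-detection with Pdgfra, a receptor of oligodendrocyte precursor cells (OPCs), and with Mbp, a structural protein of myelin.

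The series holds 229 mouse samples in 10 groups, profiled by Drop-seq, 10x Genomics, C1 capture and ATAC-seq. The PDGFRa-GFP Drop-seq library came from cerebral cortex at postnatal days 1 to 3 (P1-3), and the hGFAP-GFP Drop-seq library from cortex at P5-6. Their genotypes are given as PDGFRa normal with PDGFRa-gfp and as hGFAP normal with hGFAP-gfp. In the first strain GFP marks cells using the Pdgfra gene, and in the second a human GFAP promoter drives GFP in astrocytes and neural progenitors. The sort of cortex cells kept live GFP-positive cells, so cells that had lost GFP were left out. The C1 sets, each cell a sample, were 60 cells (P3) and 53 cells (P6) of the PDGFRa-GFP strain, then 49 cells (P3) and 61 cells (P4 or P6) of the hGFAP-GFP strain. Their genotype fields read PDGFRa normal and hGFAP normal. A strain field reads hGFAP-gfp in all 4 sets, against the titles of the PDGFRa-GFP cells, and the titles were followed. The mouse glioblastoma gave 1 Drop-seq library labelled dpi 25 and 1 10x library labelled dpi 35, with no sort stated. The labels used here name neither the alleles of the tumour model nor the meaning of dpi. ATAC-seq, which maps open chromatin, was done on sorted PDGFRa-GFP cortex cells titled E14.5 and P5, whose stage fields read P1-3 and P6 and whose genotype fields read PDGFRa normal and hGFAP normal. No animals are named, so each droplet library and each C1 set is 1 sample. No p-value is given, and every interval is a 95% interval that covers counting error only.

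Oligodendrocytes form from OPCs, which first commit, then pass through a premyelinating stage and then wrap axons. Committed precursors lose Pdgfra and pass through a transient phase in which Gpr17, Bmp4, Neu4, Enpp6 and Tcf7l2 are used before the myelin genes reach full level. Bcas1 and Sirt2 are used by later oligodendrocytes as well.

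The libraries held 3184 cells (PDGFRa-GFP), 815 (hGFAP-GFP), 4955 (dpi 25) and 6054 (dpi 35). Their totals were 8166699, 4196024, 11544233 and 51194749 unique molecular identifiers (UMIs, each a counted RNA molecule), with medians of 2013.5, 4167, 2063 and 6582 per cell. The labels state 2000 cells where the hGFAP-GFP table holds 815, and 6796 where the dpi 25 table holds 4955. No cell barcode was shared between any of these libraries. Because depth differs, shares of cells were also read after drawing 1000 UMIs from each cell with at least as many. That left 2684, 815, 4955 and 6054 cells.

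In the deposited list of open chromatin, 5 of the 7 genes held at least 1 interval within the gene, against 69% of protein-coding genes. The list pools E14.5 and P5 cells, so no stage can be compared. Its fold over background and -log10 q are the authors' values. Sirt2, a deacetylase of tubulin and other proteins that is abundant in oligodendrocytes (chr7:28766752-28788665), held the interval with the highest fold. That interval, chr7:28766103-28767098, lies over the gene's start, with a fold of 12.6 and a -log10 q of 22, above 97.0% of all summits. The median fold of the list is 4.04. Tcf7l2, a transcription factor of the Wnt pathway (chr19:55741797-55933659), held 11 intervals, one of them over its first start at chr19:55741192-55741915 with a fold of 5.06. Bcas1, a protein of early myelinating cells (chr2:170343973-170427911), held 6 intervals with folds from 3.03 to 5.56. Bmp4, a secreted growth factor (chr14:46383525-46390669), held 2, with folds of 4.55 and 2.53. Enpp6, a choline phosphodiesterase (chr8:46939197-47096762), held 1, with a fold of 3.03 and a -log10 q of 0.986. Gpr17, a receptor related to purine and leukotriene receptors, and Neu4, a sialidase (chr1:94020493-94028334), held 0. The nearest intervals lay 100 bases beyond Gpr17, with a fold of 3.54, and 6614 bases beyond Neu4, with a fold of 8.09. At a -log10 q of at least 10, only Sirt2 kept an interval.

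Of the 5 genes with a promoter window, which runs from 250 bases before a RefSeq start to 50 after it, 2 had an interval over a window, against 58.3% of such genes overall. These were Sirt2 and Tcf7l2. Their windows are shown because open chromatin was measured there, and the window of Enpp6 because it holds the same letters without an interval. The sequences are from RefSeq (GRCm38.p6), 5′ to 3′ on the plus strand. Capitals mark ACAATG or its reverse complement CATTGT, a word found in many SOX factor sites.
Sirt2 at chr7:28766502-28766801: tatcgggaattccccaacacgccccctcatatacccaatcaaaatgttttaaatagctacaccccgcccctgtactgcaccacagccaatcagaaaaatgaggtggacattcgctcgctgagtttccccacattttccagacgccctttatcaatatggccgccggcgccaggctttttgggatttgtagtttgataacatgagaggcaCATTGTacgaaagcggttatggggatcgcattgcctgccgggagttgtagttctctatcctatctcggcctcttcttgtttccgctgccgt
Tcf7l2 at chr19:55741560-55741859: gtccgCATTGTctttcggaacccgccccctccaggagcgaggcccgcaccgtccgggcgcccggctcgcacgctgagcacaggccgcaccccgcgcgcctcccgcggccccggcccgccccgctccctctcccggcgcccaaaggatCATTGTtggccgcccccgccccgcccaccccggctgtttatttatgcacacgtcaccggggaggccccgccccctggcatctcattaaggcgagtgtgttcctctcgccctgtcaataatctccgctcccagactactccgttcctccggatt
Enpp6 at chr8:46986637-46986936: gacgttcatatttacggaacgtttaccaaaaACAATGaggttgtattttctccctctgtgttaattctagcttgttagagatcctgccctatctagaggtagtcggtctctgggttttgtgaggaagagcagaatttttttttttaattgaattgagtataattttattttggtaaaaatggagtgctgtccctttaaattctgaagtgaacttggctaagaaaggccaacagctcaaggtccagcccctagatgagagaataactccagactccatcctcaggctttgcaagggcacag

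The letters occurred once each in the Sirt2 and Enpp6 windows and at 2 positions in that of Tcf7l2. The Bmp4, Neu4 and second Tcf7l2 windows held none. Over all 32851 windows, searched on both strands, 12.6% held the letters, as did 6.76% of the 14110 windows with an interval. The Enpp6 window lies inside the annotated gene span, at a start downstream of the first. Base composition also differs: guanine and cytosine make up 70% of the Tcf7l2 window, 50% of that of Sirt2 and 40.3% of that of Enpp6.

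In the neonatal PDGFRa-GFP library, all 7 genes were highest in the same small cluster of 38 cells. Clusters were made without the 7 genes. This one was named oligodendrocyte-like from its leading genes, which include Mbp, Mag and Cldn11. Of the genes tested in this library, 15.5% were highest there. Levels are given in CPM, the UMIs of a gene per 1000000 UMIs summed over the same cells. Within the cluster the level was 1419 CPM (1231 to 1628) for Gpr17 and 793 (654 to 953) for Bmp4. Among the enzymes it was 1196 (1024 to 1389) for Enpp6, 257 (181 to 355) for Neu4 and 4452 (4113 to 4810) for Sirt2. It was 639.9 (516 to 785) for Tcf7l2 and 4625 (4281 to 4991) for Bcas1. Mbp stood at 7269 CPM there. Pdgfra had 0 UMIs of 143770, with an upper limit of 25.7 CPM. The cluster with the highest levels of all 7 was thus rich in Mbp and had no Pdgfra UMI.

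The genes differed in how much of their RNA lay outside this cluster. Its 38 cells carried 93.5% of the library's Enpp6 UMIs, 69.1% of Bmp4, 50% of Neu4, 41% of Bcas1, 40.2% of Sirt2, 34.3% of Tcf7l2 and 27.4% of Gpr17. For Gpr17 the next cluster was the OPC-like one of 536 cells, which held 49.3% of its UMIs at 263 CPM (237 to 291), 5.40-fold below the oligodendrocyte-like cells. Enpp6 was at 2.87 CPM (0.781 to 7.34) in the same OPC-like cells, from 4 UMIs. Bcas1 was next highest in a primitive OPC-like cluster of 545 cells led by Fos, Ppp1r14b and Junb, at 361 CPM (327 to 398), where Gpr17 stood at 46 (34.4 to 60.4). Sirt2 was at 230.0 CPM (206 to 257) in OPC-like cells and 182 (158 to 209) in those primitive OPC-like cells. Gpr17 therefore spread into the Pdgfra-rich cells, Bcas1 into both precursor clusters, and Enpp6 was nearly confined to the 38 cells.

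Some of the genes had a second site outside the lineage. Tcf7l2 reached 97.0 CPM in the 56 astrocyte-like cells of the PDGFRa-GFP library, where Gpr17, Enpp6, Bmp4 and Neu4 had 0 UMIs. Bmp4 reached 76.3 CPM in 53 cells led by Ttr, named ependymal- or choroid plexus-like, and had a UMI in 9.62% of them at 1000 UMIs. Sirt2 was found in every cluster of at least 30 cells, from 49.6 CPM upward. In the larger neuronal-like clusters it had a UMI in 9.23% and 6.74% of cells at 1000 UMIs, while Gpr17 had one in 0% and 0.843% and Bcas1 in 1.5% and 1.4%. Median depth was 1471 and 1424 UMIs there, against 3617.5 in the oligodendrocyte-like cells. At the same 1000 UMIs the oligodendrocyte-like cells had Gpr17 in 71.4% (53.7 to 85.4), Bcas1 and Sirt2 in 100% (90 to 100) and Neu4 in 20% (8.44 to 36.9). Without thinning, Gpr17 was found in 94.7% of them and Neu4 in 50%.

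In the hGFAP-GFP library all 7 genes were again highest in 1 cluster, here 80 OPC-like cells, where 11.7% of genes tested were highest. Mbp and Matn4 were among its leading genes, so precursor and myelin genes led the same cluster. Its levels were 480 CPM (413 to 556) for Gpr17, 153 (116 to 198) for Bmp4, 92.4 (64.4 to 128) for Enpp6, 108 (77.7 to 147) for Neu4, 663 (583 to 750) for Sirt2, 723 (640 to 814) for Bcas1 and 124 (91.2 to 165) for Tcf7l2. Pdgfra stood at 589 CPM and Mbp at 348. Tcf7l2 stood out among the 7, since the astrocyte-like cells had 104 CPM and the ependymal- or choroid plexus-like cells 100.4, within counting error of the OPC-like cluster. The cluster held only 21% of the library's Tcf7l2 UMIs, against 79.0% to 93.2% for Gpr17, Bmp4, Enpp6, Neu4 and Bcas1, and 41% for Sirt2. When the cells were split more finely, at a Leiden resolution of 2, 3 of the 7 shared 1 highest cluster among those of at least 30 cells. That split also set apart an oligodendrocyte-like cluster of 19 cells, which was too small to be compared.

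**Figure D1:**
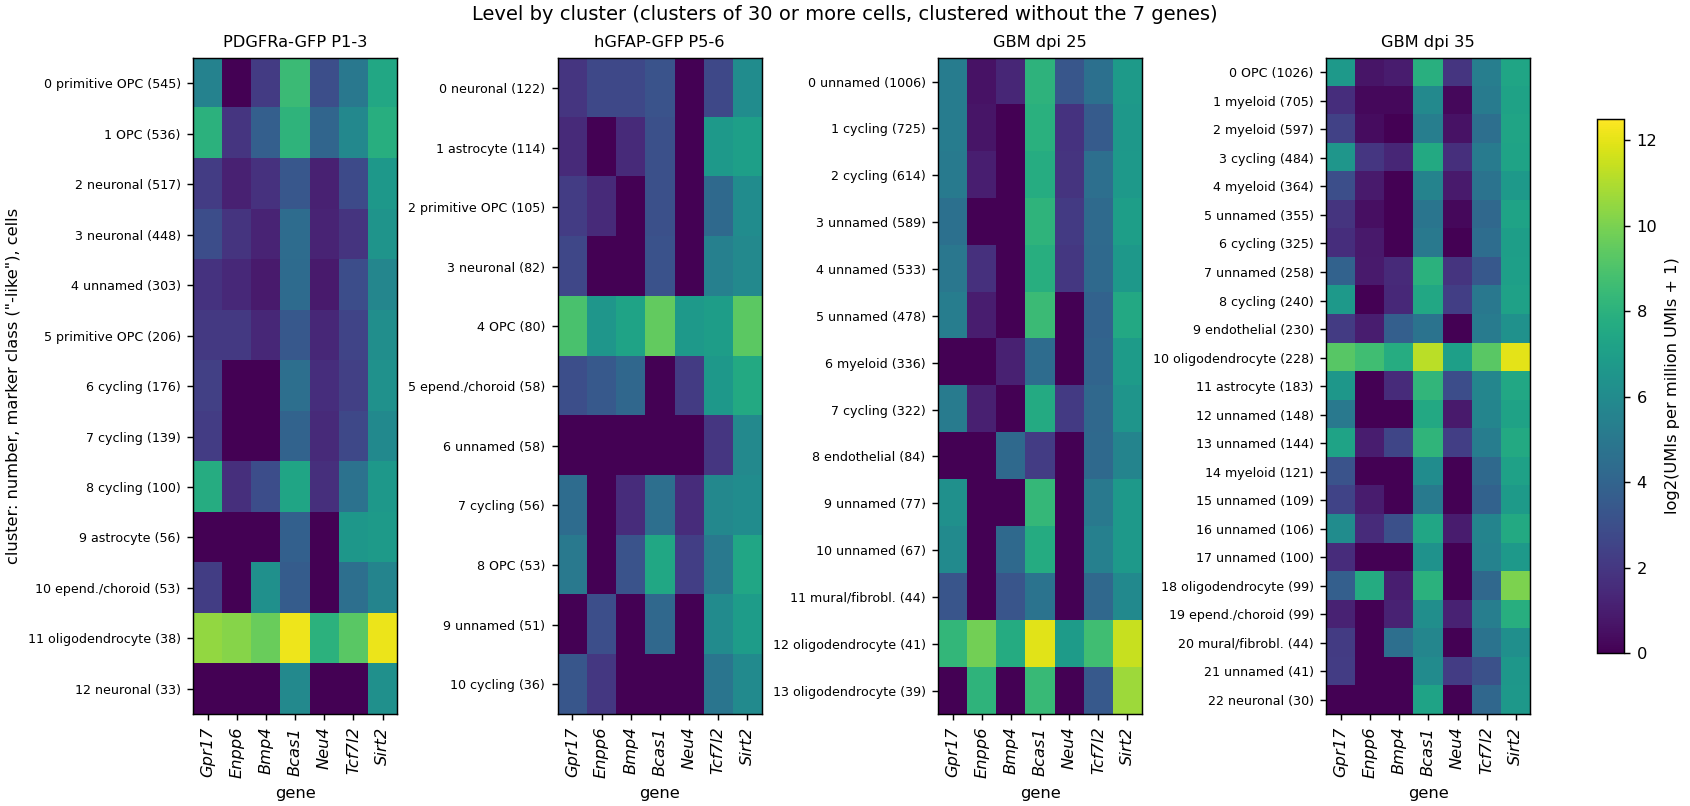
Level of each gene (columns) in each cluster of at least 30 cells (rows, with its number, marker class and cells) in the 4 droplet libraries, as log2(CPM + 1). One row is brightest for all 7 genes in each library: 38 cells in PDGFRa-GFP, 80 in hGFAP-GFP, 41 at dpi 25 and 228 at dpi 35. The dpi 35 row of 183 cells marked astrocyte is led by the neuronal genes Camk2a and Kif5a as well as Gfap, and its class name is not relied on.

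The tumour libraries showed the same gathering. At dpi 25 all 7 were highest in 41 oligodendrocyte-like cells led by Cdkn1c, Opalin and 9530059O14Rik (13.5% of genes tested), and at dpi 35 in 228 oligodendrocyte-like cells led by Rnd2, 9530059O14Rik and Nfasc (5.56%). The 41 cells carried 72.3% of the Enpp6 UMIs and 61.8% of the Bmp4 UMIs of the dpi 25 library, but only 13.2% of Bcas1 and 8.33% of Gpr17. In the dpi 35 library, 228 cells carried 81.1% of Bmp4, 81.0% of Neu4, 78.0% of Enpp6, 46.4% of Bcas1 and 41.2% of Gpr17. Most Bcas1 at dpi 25 lay in clusters of cycling-like and unnamed cells, at 200 to 369 CPM, where Gpr17 stood at 23.2 to 77.5 CPM. In the myeloid-like cluster of that library, Gpr17 had 0 UMIs and Bcas1 20.3 CPM. The OPC-like cluster of the dpi 35 library, with 1026 cells, had Gpr17 at 104 CPM and Bcas1 at 234, against 0.629 for Enpp6 and 0.944 for Bmp4.

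Each tumour library also held another oligodendrocyte-like cluster, led by Apod, Ptgds and Mal, in which Gpr17, Bmp4, Neu4 and Tcf7l2 were at 17.8 CPM or less while Mbp was high. Mature myelinating cells are known to use Apod and Mal. At dpi 25, Gpr17 had 32 UMIs in the 41 cells of the 9530059O14Rik-led cluster (309 CPM) and 0 in the 39 cells of the Apod-led one, at least 10.0-fold higher when 3 UMIs are taken as the floor. Bmp4 had 21 UMIs against 0 and Neu4 12 against 0, with lower limits of 2.29 and 1.39 for the log2 ratios. Tcf7l2 had 42 against 1, a log2 ratio of 5.30 (2.75 to 10.64). Bcas1 stood at 3859 against 339 CPM, a log2 ratio of 3.51 (2.99 to 4.07). Enpp6 and Sirt2 were kept to a greater degree, with log2 ratios of 1.71 (1.08 to 2.39) and 0.82 (0.53 to 1.11). Mbp went the other way, at 3781 against 11426 CPM.

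At dpi 35 the differences had the same directions, with more cells. Gpr17 had 1236 UMIs in 228 cells and 12 in 99, a log2 ratio of 5.59 (4.78 to 6.55). Bmp4 had 434 against 1, a log2 ratio of 7.67 (5.18 to 12.98). Neu4 had 265 against 0, with a lower limit of 5.06 for the log2 ratio. Tcf7l2 differed by 5.13 (4.45 to 5.91) and Bcas1 by 3.20 (3.01 to 3.39) on the log2 scale. Sirt2, at 4068 against 1053 CPM, differed by 1.95 (1.86 to 2.05), and Enpp6, at 407 against 204 CPM, by 0.99 (0.77 to 1.23). Mbp was equal within counting error, at 8066 and 8025 CPM. By a 2-fold rule, 5 of the 6 genes with at least 20 summed UMIs were higher in the 9530059O14Rik-led cluster at dpi 25, against 26.8% of genes tested, and 6 of 7 at dpi 35, against 20.9%. None was 2-fold lower, where 13.3% and 11.9% of genes were. All 7 were already highest in the 9530059O14Rik-led cluster of each library, so none could be lower there. The counts of higher genes lean the same way for that reason. The comparison of these clusters was chosen after the clusters were seen. In both libraries Enpp6 and Sirt2 were the members with the smallest differences. Mbp UMIs were not limited to this lineage in the dpi 35 library. At 1000 UMIs, 36.5% to 49.6% of myeloid-like cells had one, while Gpr17 was in 0% to 0.824% of them and Sirt2 in 9.62% to 15.1%. An Mbp UMI was also in 30.4% of endothelial-like, 27.3% of mural- or fibroblast-like and 46.7% of neuronal-like cells.

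**Figure D2:**
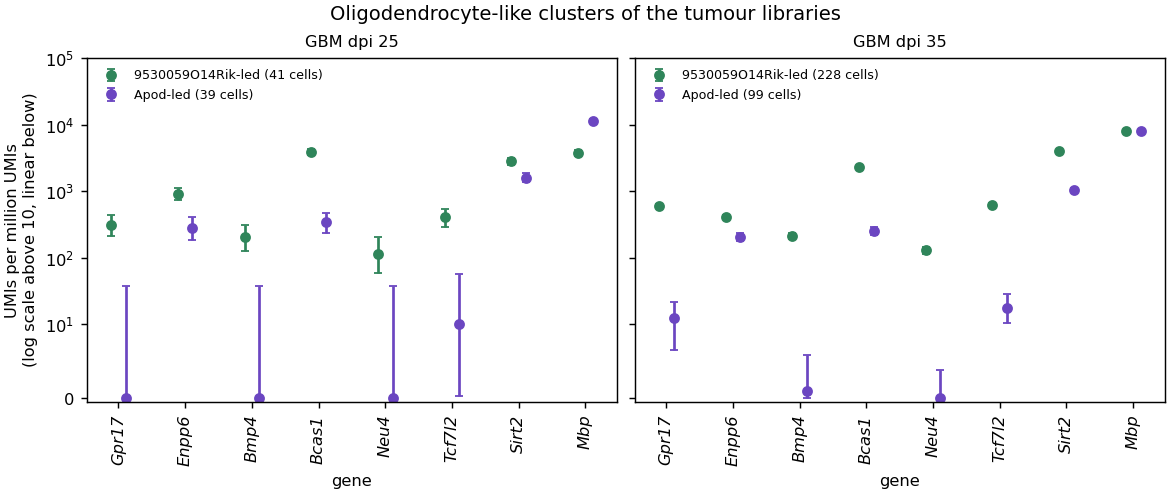
Level in CPM (log scale above 10, linear below) of the 7 genes and Mbp in the 9530059O14Rik-led and Apod-led oligodendrocyte-like clusters of both tumour libraries, with exact Poisson 95% intervals. Gpr17, Bmp4, Neu4 and Tcf7l2 are at 17.8 CPM or less in the Apod-led cells, while Enpp6, Bcas1 and Sirt2 remain above 200 CPM.

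Over whole libraries, Gpr17, the receptor, was highest in PDGFRa-GFP cells at 91.1 CPM (84.7 to 97.9), followed by 58.6 (56.5 to 60.7) at dpi 35, 50.3 (43.7 to 57.5) in hGFAP-GFP cells and 33.3 (30.0 to 36.8) at dpi 25. The dpi 35 and hGFAP-GFP intervals overlapped. After thinning, 6.71% (5.79 to 7.72), 5.02% (4.48 to 5.60), 4.54% (3.22 to 6.2) and 3.45% (2.96 to 4.00) of cells had a UMI, in the same order. Without thinning the shares were 11.9%, 20%, 9.2% and 6.66%. The 10x library uses another chemistry and greater depth, so its levels are set beside the others without a ratio.

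Bmp4, the ligand, ranged from 20.2 CPM (17.2 to 23.5) in PDGFRa-GFP and 16.4 (12.8 to 20.8) in hGFAP-GFP cells, which overlapped, to 10.5 (9.58 to 11.4) at dpi 35 and 2.95 (2.04 to 4.12) at dpi 25. It was detected in 7 cells of 4955 at dpi 25 after thinning. Among the enzymes, Enpp6 was at 22.5 CPM (19.4 to 26) in PDGFRa-GFP cells and 20.7 (19.5 to 22) at dpi 35, and at 10.5 (7.62 to 14.1) and 11.3 (9.41 to 13.4) in hGFAP-GFP cells and at dpi 25. The intervals overlapped in each pair, though the first pair sets Drop-seq beside 10x and is not a comparison of levels. Neu4 was at 10.5 CPM (7.62 to 14.1) in hGFAP-GFP, 9.06 (7.11 to 11.4) in PDGFRa-GFP, 6.39 (5.71 to 7.12) at dpi 35 and 4.33 (3.21 to 5.71) at dpi 25. Neighbours in that order overlapped, except that the dpi 35 and dpi 25 intervals lay just apart. Sirt2 was at 315 CPM (310 to 320) at dpi 35, 195 (186 to 205) in PDGFRa-GFP, 149 (142 to 156) at dpi 25 and 146 (135 to 158) in hGFAP-GFP cells, and the last pair overlapped. Bcas1 was highest at dpi 25, at 263 CPM (253 to 272), then at 199 (195 to 203) at dpi 35 and 198 (189 to 208) in PDGFRa-GFP, and lowest in hGFAP-GFP cells at 82.7 (74.2 to 91.9). Tcf7l2 had yet another order, at 54.2 CPM (52.2 to 56.2) at dpi 35 and 53.4 (46.6 to 60.9) in hGFAP-GFP cells, 32.8 (29 to 37) in PDGFRa-GFP and 22.3 (19.6 to 25.2) at dpi 25. The 7 genes thus did not share 1 order of libraries, also when the Drop-seq libraries are taken alone.

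**Figure D3:**
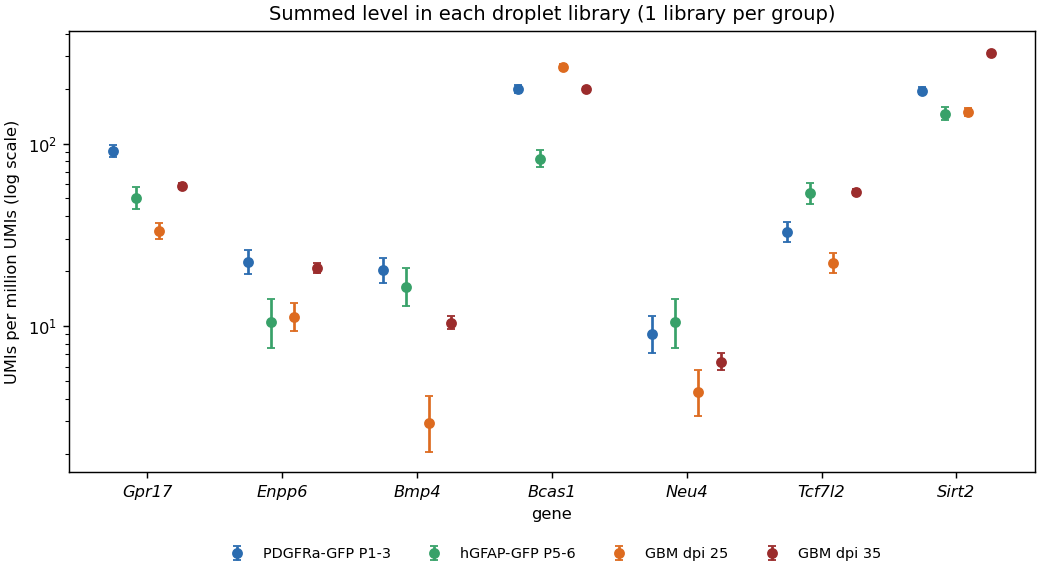
Level of each gene in CPM (log scale) in the 4 droplet libraries, 1 library per group, with exact Poisson 95% intervals for counting error. Bcas1 is highest at dpi 25, where the other 6 genes are lowest or, for Enpp6 and Sirt2, within counting error of the lowest.

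Between the cortex libraries, 2 of the 7 genes were at least 2-fold higher in PDGFRa-GFP cells, Bcas1 with a log2 ratio of 1.26 (1.10 to 1.43) and Enpp6 with 1.10 (0.62 to 1.61), where 4.85% of genes tested were. None was 2-fold lower, where 12.7% of genes were. Gpr17 had a log2 ratio of 0.86 (0.63 to 1.08) and Tcf7l2 one of -0.70 (-0.96 to -0.44). The Bmp4 and Neu4 ratios, 0.30 (-0.12 to 0.72) and -0.21 (-0.77 to 0.36), had intervals that include 0. Strain, age and library are 1 and the same contrast here and cannot be told apart. The 38 oligodendrocyte-like cells held 172 of the 184 Enpp6 UMIs of the PDGFRa-GFP library. Without cells that had at least 3 myelin genes, the Enpp6 log2 ratio was -0.84 (-2.15 to 0.48), an interval that includes 0. Of the 7, 1 was then higher and 1 lower. With every cell drawn to 1000 UMIs, Bcas1 was again higher, with 1.08 (0.72 to 1.46), Enpp6 had 0.25 (-0.73 to 1.35) and Tcf7l2 was 2-fold lower, with -1.61 (-2.13 to -1.08).

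At dpi 25, 4 of the 7 were at least 2-fold lower than in PDGFRa-GFP cells, against 16.6% of genes tested: Bmp4 with a log2 ratio of -2.78 (-3.36 to -2.24), Gpr17 with -1.45 (-1.64 to -1.27), Neu4 with -1.06 (-1.61 to -0.53) and Enpp6, only just past 2-fold, with -1.0 (-1.34 to -0.67). Bcas1 had a ratio of 0.40 (0.32 to 0.49), and 0 of 7 were 2-fold higher, against 16.2%. Against hGFAP-GFP cells, 3 were 2-fold lower at dpi 25 (20.5% of genes): Bmp4, Neu4 and Tcf7l2, with ratios of -2.48 (-3.12 to -1.87), -1.28 (-1.89 to -0.66) and -1.26 (-1.53 to -1.0). Bcas1 was higher, with 1.67 (1.51 to 1.83), where 17.2% of genes were. With every cell drawn to 1000 UMIs, and counting only genes with at least 20 summed UMIs, 3 were lower than in PDGFRa-GFP and 1, Tcf7l2, than in hGFAP-GFP cells. In the latter comparison Neu4 then had -0.47 (-1.90 to 1.29), and Bmp4, with too few UMIs to be counted, had -2.93 (-4.47 to -1.43). Without cells that had at least 3 myelin genes, 2 of the genes with at least 20 summed UMIs were lower than in PDGFRa-GFP cells. The comparisons share libraries and no sort of the tumour is stated. A smaller share of lineage cells and less RNA per cell cannot be told apart in these sums. In the same dpi 25 library Pdgfra stood at 269 CPM and Mbp at 238, against 141 and 152 in PDGFRa-GFP cells.

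Co-detection was read at 1000 UMIs per cell. In the PDGFRa-GFP library 303 cells had a Pdgfra UMI and no Mbp UMI, 85 had Mbp only, 13 had both and 2283 had neither. Every one of the 7 was found in a larger share of Mbp-only than of Pdgfra-only cells. Enpp6 was in 17 of the 85 Mbp-only cells, 20% (12.1 to 30.1), and in 0 of 303 Pdgfra-only cells, which allows a share of up to 0.99%. Bmp4 was in 24.7% (16 to 35.3) against 0.660% (0.0800 to 2.36). Gpr17 was in 32.9% (23.1 to 44) against 17.5% (13.4 to 22.2), the smallest relative difference of the 7. Bcas1 was in 47.1% against 14.9%, Sirt2 in 48.2% against 14.52%, Tcf7l2 in 22.4% against 3.63% and Neu4 in 9.41% against 0.99%. Of the genes with at least 20 summed UMIs, 6 of 6 members were 2-fold higher per cell in Mbp-only cells, against 6.59% of genes tested, and 0 were 2-fold lower, against 11.7%.

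Of the 85 Mbp-only cells, 32 belonged to the oligodendrocyte-like cluster. Without that cluster, the remaining 53 Mbp-only cells had Gpr17 in 9.43%, against 17.5% of Pdgfra-only cells. The interval of that difference includes 0. Enpp6 was then in 0 of 53, Bcas1 in 15.1% and Sirt2 in 17%. Read from the other side, 85% (62.1 to 96.8) of the 20 cells with Enpp6 had an Mbp UMI and 0 had Pdgfra. For Gpr17, 29.4% (22.9 to 36.7) of 180 cells had Pdgfra and 15.6% (10.6 to 21.7) had Mbp, where cells without Gpr17 had them in 10.5% and 2.80%. None of the 180 had both. Bmp4 lay between, with Mbp in 51.2% (35.1 to 67.1) and Pdgfra in 4.88% (0.596 to 16.5) of 41 cells.

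The genes were also found together. Of the 20 cells with Enpp6, 18 had Bcas1, 18 had Sirt2 and 13 had Gpr17. Of the 180 with Gpr17, 13 had Enpp6, 7.22% (3.9 to 12). Most cells with any of the 7 had only 1: at 1000 UMIs, 24.9% (23.3 to 26.6) of PDGFRa-GFP cells had at least 1 and 2.09% (1.58 to 2.70) at least 3. Of the 56 cells with at least 3, 35 were oligodendrocyte-like, 34 had Mbp and 5 had Pdgfra. The 14 cells with 5 of the genes and the 5 cells with 6 had no Pdgfra UMI.

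In the hGFAP-GFP library only 12 cells were Mbp-only and 58 Pdgfra-only, with none having both. Gpr17 and Bcas1 were each in 5 of the 12, 41.7% (15.2 to 72.3), and in 20.7% (11.2 to 33.4) of the 58, so the intervals overlapped. Tcf7l2 was in 0 of the 12, but in 6.98% of the 745 cells with neither. By summed UMIs, 3 of 3 members tested were 2-fold higher in the Mbp-only cells, against 6.93% of genes, and 0 were lower, against 15.3%.

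In the tumours the split was narrower for most of the 7, but the Mbp-only cells were of other kinds. Oligodendrocyte-like cells made up 14.7% of them at dpi 25 and 11.0% at dpi 35, against 37.6% in the PDGFRa-GFP library. The part of this make-up in the narrower split was not tested. At dpi 25, 416 cells were Mbp-only and 1024 Pdgfra-only. Enpp6 was in 7.45% (5.12 to 10.4) of the first and in 0 of the second, which allows up to 0.293%. Sirt2 was in 23.3% (19.3 to 27.7) against 10.5% (8.73 to 12.6). Gpr17 was in 4.81% (2.96 to 7.33) against 3.52% (2.47 to 4.83) and Bcas1 in 27.2% (22.9 to 31.7) against 23.4% (20.9 to 26.2), with overlapping intervals. Enpp6 and Sirt2 were the 2 of 5 members tested that were 2-fold higher in Mbp-only cells, against 3.58% of genes, and 0 were lower, against 5.15%. The 117 cells with both had Bcas1 in 28.2% and Enpp6 in none. At dpi 35, Mbp-only cells numbered 2607 of 6054, of which 726 were myeloid-like and 286 oligodendrocyte-like. Every marker class of that library had Mbp in at least 27.3% of cells, so an Mbp UMI does not mark the lineage there. Enpp6 was in 3.11% (2.47 to 3.85) of Mbp-only and 0 of 235 Pdgfra-only cells, and Gpr17 in 5.91% (5.03 to 6.88) and 9.79% (6.31 to 14.3). With 5 Mbp UMIs required, a setting chosen after seeing the data, Enpp6 was in 14.2% of 422 Mbp-only cells and Gpr17 in 9.24%, against 0.212% and 8.49% of Pdgfra-only cells. By the 2-fold rule 2 of 7, Enpp6 and Sirt2, were higher at dpi 35, against 13.6% of genes, and 0 were lower, against 12.4%.

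**Figure D4:**
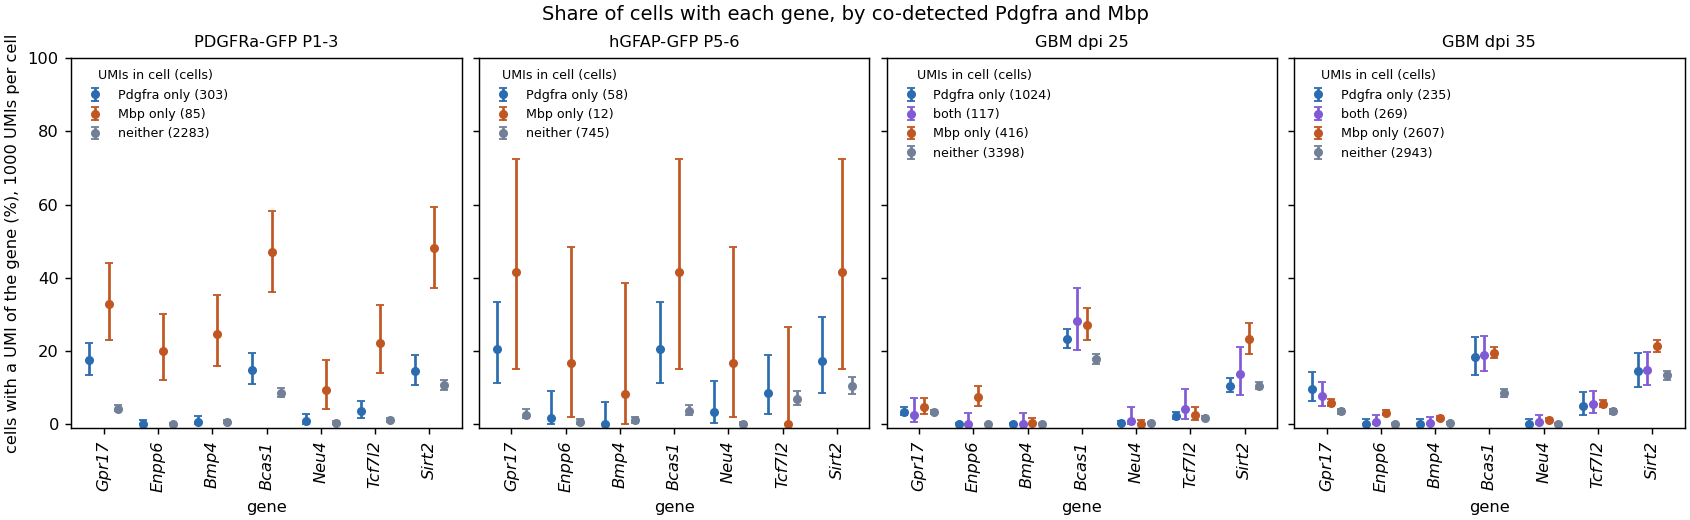
Share of cells with a UMI of each gene at 1000 UMIs per cell, by whether the cell had Pdgfra only, Mbp only, both or neither, with exact 95% binomial intervals (numbers of cells in the legends; "both" is drawn where it holds at least 20 cells). In the PDGFRa-GFP library all 7 points for Mbp-only cells lie above those for Pdgfra-only cells, and at dpi 25 the Gpr17 and Bcas1 intervals of these classes overlap.

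The C1 cells give full-length levels in TPM, transcripts per 1000000 transcripts of a cell, with few cells but more genes per cell. Enpp6, Bmp4 and Neu4 were listed at 0 in most cells of every set and were high in a few. In PDGFRa-GFP cells Gpr17 ran from 0 to 2050 TPM at P3, with a median of 0, and from 0 to 1938 at P6, with a median of 21.8. It reached 10 TPM in 12 of 60 cells at P3, 20% (10.8 to 32.3), and in 28 of 53 at P6, 52.8% (38.6 to 66.7). Bcas1 went from 13.3% (5.94 to 24.6) to 39.6% (26.5 to 54), Tcf7l2 from 18.3% (9.52 to 30.4) to 52.8% (38.6 to 66.7) and Neu4 from 1.67% (0.0422 to 8.94) to 18.9% (9.44 to 32). Sirt2 was at 10 TPM in 38.3% (26.1 to 51.8) and 62.3% (47.9 to 75.2). Bmp4, in 4 and 7 cells, and Enpp6, in 2 and 4 cells, were too rare to compare. All 7 shares were higher at P6, and so was the number of genes detected, with medians of 4124.5 at P3 and 5591 at P6. The part of that difference in these shares was not tested. Pdgfra moved likewise, from 18.3% to 50.9% of cells, while Mbp stayed at 11.7% and 11.3%.

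By mean TPM, 4 of the 7 were at least 2-fold higher at P6 than at P3, against 33.9% of genes tested, and 0 were lower, against 20.5%. Called genes were counted on mean TPM + 1. The log2 ratios were 2.81 for Neu4, 1.52 for Enpp6, 1.40 for Bcas1, 1.38 for Gpr17, 0.95 for Tcf7l2, 0.80 for Bmp4 and 0.61 for Sirt2. Single cells carried much of these means. Without the highest P3 cell the Neu4 ratio was 6.56, and without the highest P6 cell it was 2.26. The Bmp4 ratio was 0.06 without the highest P6 cell, 1.59 without the highest P3 cell and 0.85 without both. The Enpp6 ratio was 0.89, 2.99 and 2.36 in the same order. The top 3 cells held 100% of Enpp6 TPM and 63.4% of Gpr17 TPM at P3.

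In hGFAP-GFP cells Gpr17 reached 10 TPM in 6.12% (1.28 to 16.9) of cells at P3 and 18% (9.36 to 30) at P4 or P6. Bcas1 reached it in 6.12% (1.28 to 16.9) and 16.4% (8.15 to 28.1). The intervals of the sets overlapped in both cases. Tcf7l2 was in 44.9% (30.7 to 59.8) and 37.7% (25.6 to 51), with medians of 105 and 68.4 TPM among cells at or above 10 TPM. Sirt2 was in 24.5% (13.3 to 38.9) and 29.5% (18.5 to 42.6). Enpp6 was in 1 and 3 cells, Bmp4 in 1 and 4 and Neu4 in 2 and 3. By mean TPM 3 of 7 were 2-fold higher in the later set, against 25.7% of genes: Gpr17 with a log2 ratio of 2.86, Neu4 with 2.47 and Bmp4 with 1.79. None was 2-fold lower, against 26.1%. Tcf7l2 had -0.52 and Sirt2 -0.53, which became 0.21 and 0.60 without the highest P3 cell, -0.46 and -0.39 without the highest cell of each set, and -1.19 and -1.51 without the highest later cell. The Neu4 ratio was 0.33 without the highest later cell, 3.63 without the highest P3 cell and 1.49 without both. The Bmp4 ratio was 0.52, 5.36 and 4.09 in the same order. The Enpp6 ratio of 0.10 became 3.30 without the highest cell of each set and -2.06 without the highest later cell, so no direction can be read for it. Median numbers of genes detected were 3768 and 3405. The tables of the strains were normalized separately, so no level is compared between them.

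**Figure D5:**
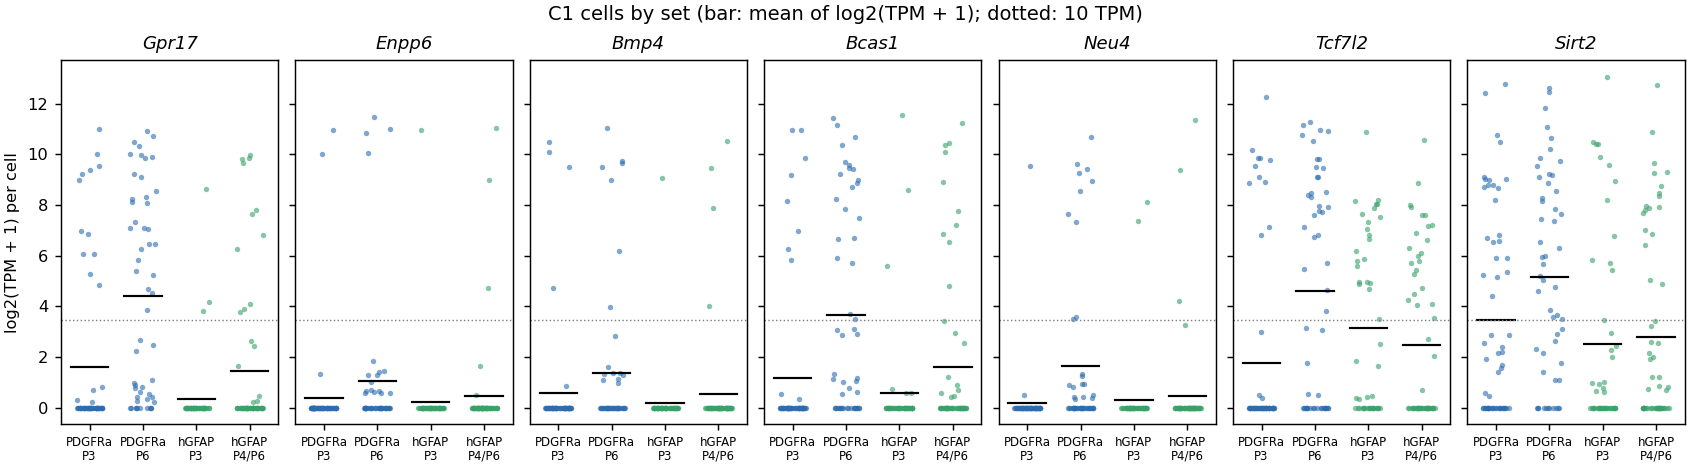
log2(TPM + 1) of each gene in every C1 cell, by set (60, 53, 49 and 61 cells from left to right in each panel), with a bar at the mean of log2(TPM + 1) and a dotted line at 10 TPM. Enpp6, Bmp4 and Neu4 show a few cells near 10 on the log2 scale and nearly all others at or near 0, while Tcf7l2 also fills the middle range in hGFAP-GFP cells.

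A few C1 cells had most of the 7 genes together. At 10 TPM, 9 of 113 PDGFRa-GFP cells had at least 5 of the 7, namely 2 of 60 at P3 and 7 of 53 at P6. They carried 99.9% of the summed Enpp6 TPM, 90.6% of Bmp4, 68.4% of Sirt2, 68.0% of Bcas1, 57.1% of Neu4, 53.4% of Tcf7l2 and 49.9% of Gpr17, and 98.8% of Mbp, but 2.45% of Pdgfra. These cells were chosen by the 7 genes, so high shares of those genes are partly built in. Mbp and Pdgfra played no part in the choice. All 7 genes were found together in 4 of the P6 cells and 1 of the P3 cells. One P6 cell with all 7 had Gpr17 at 1938 TPM, Bmp4 at 2109, Enpp6 at 1055, Mbp at 303 and Pdgfra at 0. Another P6 cell with all 7 had Gpr17 at 1289, Bmp4 at 71.1, Enpp6 at 1812 and Mbp at 13080. Among the 9, a single P6 cell had Pdgfra above 10 TPM, at 250.3, and it had Gpr17 at 990 and Enpp6 at 2.54. A P3 cell with Mbp at 13937 TPM had Bmp4 at 1092 and no Neu4.

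Of the 110 hGFAP-GFP cells, 6 had at least 5 of the 7, and they held 99.9% of Enpp6 TPM, 100% of Bmp4, 66.9% of Gpr17, 65.5% of Bcas1, 64.4% of Sirt2, 49.5% of Tcf7l2 and 29.8% of Neu4. They held 81.7% of Mbp and 29.6% of Pdgfra, which again played no part in choosing the cells. The cell with the highest Mbp, 15455 TPM at P3, had all 7, with Sirt2 at 8561, Bcas1 at 2992, Enpp6 at 1973 and Pdgfra at 0. Another P3 cell had Pdgfra at 3925 TPM with Neu4 at 273, Gpr17 at 17.2 and no Enpp6 or Bmp4. Over PDGFRa-GFP cells by class, Gpr17 reached 10 TPM in 27 of 37 Pdgfra-only cells, 73.0% (55.9 to 86.2), and 7 of 12 Mbp-only cells, 58.3% (27.7 to 84.8). Enpp6 reached it in 0 of 37 and 6 of 12. Only 1 of the PDGFRa-GFP cells had both Pdgfra and Mbp, with Mbp at 10.3 TPM. Of the hGFAP-GFP cells, 15 were Pdgfra-only, 5 were Mbp-only and 2 had both, with Mbp at 1394 and 4065 TPM. Gpr17 reached 10 TPM in 6 of these 15, 4 of the 5 and 2 of the 2. Enpp6 reached it in 0 of the 15, 4 of the 5 and 0 of the 2.

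The other genes of the relevant pathways were read from lists. Other premyelinating oligodendrocyte genes, such as Myrf and Itpr2, numbered 13 tested of 15 between the cortex libraries, with 1 higher (Elovl7) and 0 lower in PDGFRa-GFP cells, and a median log2 ratio of 0.28 against 0.04 over all genes. The 7 genes had a median of 0.42. Higher and lower here mean 2-fold, with no test behind the counts, and the lists overlap the lineage the 7 were chosen from. Of 16 tested BMP pathway genes, for which Bmp4 is a ligand, 1 was higher (Bmp7) and 5 were lower (Bmpr1a, Bmpr1b, Id2, Id3 and Nog) in PDGFRa-GFP cells, with a median of -0.35. Of 12 tested Wnt and TCF genes, the pathway of Tcf7l2, 1 was higher and 6 were lower (Tcf7l1, Lef1, Axin2, Znrf3, Apcdd1 and Sp5), with a median of -0.61. Of 13 tested paralogues of Gpr17, Enpp6, Neu4 and Sirt2, 2 were higher (P2ry1 and Enpp2) and 0 lower.

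At dpi 25 against PDGFRa-GFP cells, the 7 had a median log2 ratio of -1.0, and the other premyelinating genes one of 0.03, with 1 of 13 higher (Nkx2-2) and 1 lower (Tmem2). Of 10 tested myelin genes, 8 were higher and 0 lower, with a median of 1.90. Of 19 BMP pathway genes 2 were higher and 3 lower, and of 12 Wnt and TCF genes 2 were higher and 3 lower. Against hGFAP-GFP cells the medians were -0.60 for the 7, 3.16 for the 11 tested myelin genes, -0.43 for 18 BMP genes and -0.93 for 14 Wnt and TCF genes, where all genes had 0.01. In the PDGFRa-GFP C1 cells, the other premyelinating genes had 8 of 11 higher and 1 lower at P6, with a median of 1.77, the OPC genes 10 of 15 higher, with a median of 1.55, and the 7 genes a median of 1.38, where all genes had 0.32 and 33.9% were higher. In the hGFAP-GFP C1 cells, the other premyelinating genes had 4 of 12 higher and 3 lower in the later set, with a median of 0.41. The OPC genes had 6 of 15 higher and 4 lower, with a median of 0.59, and the myelin genes 2 of 8 higher and 2 lower, with a median of -0.41. The 7 genes had a median of 0.77, where all genes had 0.02 and 25.7% were higher.

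The genes most like each of the 7 were ranked by Pearson's r of log2(CPM + 10) over the 65 clusters of all 4 libraries, among 13040 other genes. These clusters share libraries and depth, so r is a description. Gpr17 was most like Lims2 (r = 0.91) and 3110035E14Rik (0.89). Enpp6 was most like Myrf, the master regulator of myelin genes (0.92), and Sirt2 (0.91), and Sirt2 most like Enpp6 (0.91) and Myrf (0.89). Bmp4 and Neu4 were each other's closest gene, with r = 0.84. Bcas1 was most like Zfp365 (0.91) and Sox10, a transcription factor of the whole lineage (0.90). Tcf7l2 had the weakest match, Col9a1 (0.77), followed by Itpr2 (0.76). Over the 113 PDGFRa-GFP C1 cells, among 8062 or 8063 genes, Gpr17 was most like Gm38039 (0.88) and Tnr (0.80), Enpp6 most like Mbp (0.83) and Bmp4 (0.78), and Bmp4 most like Epb41l2 (0.72) and Mbp (0.72). Neu4 was again most like Bmp4 (0.71).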

How the data were processed

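The Drop-seq tables hold a deposited signal, UMI counts that the authors scaled to 10000 per cell, and whole UMIs were recovered from it (from the values). The dpi 35 matrix holds UMI counts deposited by the authors as a Cell Ranger matrix. The C1 tables hold TPM made by the authors, with STAR and RSEM named in the submitters' processing notes. The deposited peak list gives, per the file's format, a score, a fold over background and a -log10 q for each peak. For it the submitters' processing notes name Bowtie2, CASAVA, HOMER and MACS2 2.12, with the builds mm10 and rn5. The score was not used.

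Levels are summed UMIs over the library or cluster total, with exact Poisson intervals. Shares have exact Clopper-Pearson intervals and ratios exact conditional ones, all at 95%. They cover counting error only, and a limit for a share of 0 takes 3 cells. In counts past 2-fold, a droplet sum of 0 UMIs was taken as 3 UMIs. A gene was counted as called past 2-fold with at least 20 summed UMIs, or at a mean of at least 1 TPM for C1 cells. C1 detection was 10 TPM. Cells were clustered without the 7 genes (scanpy 1.11.5, 2000 variable genes, 30 components, Leiden resolution 1) and named "-like" from marker lists. The scoring rule for names was settled after the clusters were seen. Scrublet marked 5, 4, 0 and 125 cells in library order. Only at dpi 35 did it mark more than 0.5% of cells, and at dpi 25 it did not work. Marked cells were kept. The interval script was tested on simulated data.

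The 7 genes and all gene lists were chosen with earlier results of these data known. The genes named are the 7, Pdgfra, Mbp, leading genes of clusters, listed genes past 2-fold and the 5 most alike, of which the first few are printed. Alternatives covered thinning, detection limits, scaling, filters, clustering, doublets, myelin-rich cells and peak strength. RefSeq promoter windows matched 5 of the 7 genes, with none for Gpr17 and Bcas1.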

Additional observations from a re-analysis of the deposited data

Results flagged for a closer look

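In the C1 cells, the mean TPM of Tcf7l2 and Sirt2 went in opposite directions in the 2 strains between the earlier and the later set. For Tcf7l2 the log2 ratio of mean TPM, later over earlier, was 0.95 in PDGFRa-GFP cells and -0.52 in hGFAP-GFP cells, a difference of 1.47. For Sirt2 the ratios were 0.61 and -0.53, a difference of 1.14. These differences were not tested, since each set is 1 sample. The hGFAP-GFP ratios of Tcf7l2 and Sirt2 were 0.21 and 0.60 without the highest P3 cell, -0.46 and -0.39 without the highest cell of each set, and -1.19 and -1.51 without the highest later cell. By the mean difference of log2(TPM + 1), Tcf7l2 was again lower in the later hGFAP-GFP set, by -0.67, and its share of cells at 10 TPM went from 44.9% to 37.7%. For Sirt2 that mean difference was 0.28 and the share went from 24.5% to 29.5%, the same direction as in PDGFRa-GFP cells, where they were 1.69 and 38.3% to 62.3%. The later set was P6 in the first strain and P4 or P6 in the second.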

How the results depend on the processing

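Of 90 recomputed counts and shares that summarise a comparison, 68 stayed within 1.5 times the value given or within its spread and 22 moved. Of 447 single-gene values, 265 stayed, 180 moved and 2 reversed. With every cell drawn to 1000 UMIs, 1 of the 7 genes was 2-fold higher and 1 lower in PDGFRa-GFP than in hGFAP-GFP cells, and 1 was lower at dpi 25 than in hGFAP-GFP cells, counting genes with at least 20 summed UMIs. Without cells holding at least 3 myelin genes, 1 was higher and 1 lower between the cortex libraries, and 2 were lower at dpi 25 than in PDGFRa-GFP cells. The Enpp6 log2 ratio between the cortex libraries then reversed to -0.84, with an interval that spans both directions. Without oligodendrocyte-like cells, the Gpr17 share in Mbp-only minus Pdgfra-only cells reversed to -8.06 percentage points (-19.1 to 7.27). The share of cells with any of the 7 depends on depth. Without thinning it was 40.4% (PDGFRa-GFP), 50.8% (hGFAP-GFP), 54% (dpi 25) and 84.3% (dpi 35), at 2000 UMIs 41.2%, 34.1%, 50.5% and 50.1%, and with 2 UMIs required 5.48%, 3.07%, 5.03% and 6.71%. At a Leiden resolution of 2, 3 genes shared 1 highest hGFAP-GFP cluster among those of at least 30 cells, which leaves out an oligodendrocyte-like cluster of 19 cells. Without the highest cell of each set, 5 genes were 2-fold higher in the later hGFAP-GFP C1 set. At a -log10 q of at least 10, 1 gene kept an interval in its span and 1 on a promoter window. Causes of these changes were not tested. No paired analysis was possible because each droplet group is 1 library and the replicate numbers of C1 samples only name cells.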

Other observations

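Outside the oligodendrocyte-like clusters, the genes had different second sites in the tumour libraries. Clusters without a cell type name are not placed inside or outside the lineage. Unnamed cells at dpi 25 had Pdgfra at 291 CPM. Bmp4 was next highest in endothelial-like cells at dpi 25, at 18.6 CPM, and in mural- or fibroblast-like cells at dpi 35, at 23 CPM. Neu4, Tcf7l2 and Bcas1 were next highest at dpi 35 in a cluster of 183 cells led by Camk2a, Kif5a and Gfap, at 6.68, 52.5 and 304 CPM. Neuronal genes lead that cluster together with astrocyte genes, so it is given no cell type name here. Gpr17 was next highest in unnamed clusters of both tumours. At dpi 25 this was a cluster of 77 cells led by Ifit3 and Ifit1, genes of the interferon response, at 77.5 CPM. At dpi 35 it was a cluster of 144 cells led by Vegfa, Ero1l and Bnip3, genes of the hypoxia response, at 152 CPM.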
